A study of Homo sapiens with 12 samples.

Results

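Chromatin-associated RNA was compared between T47D-MTVL cells transfected with an siRNA against PADI2 (siPADI2) and cells transfected with a control siRNA (siCtrl). These are 4 of the 12 libraries of the study: siCtrl replicates 1 and 5 and siPADI2 replicates 1 and 2. T47D-MTVL is a derivative of the luminal, hormone-responsive breast cancer line T47D that carries 1 copy of a luciferase reporter under the MMTV promoter. All 4 samples were labelled as time point T0, taken without progesterone, and the cells were grown without phenol red in charcoal-treated serum, so both groups share a low-hormone medium. Poly(A) RNA of siCtrl and siPADI2 cells, 2 libraries each, was set beside them. The other 4 poly(A) libraries, from cells expressing wild-type or R1810A RNA polymerase II (RNAP2) for 24 h and kept in alpha-amanitin at 6 µg/ml for 12 h, served only to choose genes. Genes were taken where their mean over the 8 poly(A) libraries was at least 1 CPM (counts scaled to a library total of 1000000), which held for 13569 of 57820 listed genes. Of these, 13305 had a GC value and 13180 also reached a mean of 2 CPM over the 4 chromatin libraries and were tested. No gene chosen by the poly(A) minimum had 0 counts in all 4 chromatin libraries. The time between transfection and harvest and the siRNA sequences are not given in the sources used here. Whether the 2 libraries of a group are separate cultures is not stated in the labels. Each p-value thus rests on library-to-library spread alone, and that spread may be technical.

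PADI2 is a peptidylarginine deiminase, a calcium-dependent enzyme that turns arginine in proteins, histones and the C-terminal domain of RNAP2 among them, into citrulline. Chromatin-associated RNA is what stays with the chromatin pellet after nuclei are extracted with urea and detergent. It is rich in nascent transcripts still held by the polymerase and in noncoding RNAs kept at chromatin, whereas poly(A) RNA is mostly finished mRNA in the cytoplasm, whose level also depends on decay. The pair of fractions therefore asks which of the knockdown's changes are present in the RNA at the template. The counts cover exons only, per the file headers, so intronic nascent RNA is not part of the values.

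The chromatin libraries held 7040541 and 6667627 counts (siCtrl) and 2798723 and 2720080 (siPADI2), against 44318629 to 132764704 in the poly(A) libraries set beside them. The 7SK RNA, a nuclear RNA that holds the elongation kinase P-TEFb inactive, took 10.3% to 16.3% of the chromatin counts. These libraries were ribosomal RNA-depleted and the others are of poly(A) RNA. With no whole-cell library made the same way, this share cannot show how far chromatin RNA was enriched. All 12 luminal markers were detected in every chromatin library (summed level, without GC correction, 2379 and 2605 CPM in siCtrl, 1795 and 1307 CPM in siPADI2). Markers of other cell types were also above 0: the 4 immune markers summed to 61.1 to 91.2 CPM in chromatin RNA and to 0.218 to 0.369 CPM in poly(A) RNA of the same cell line. Genes with next to no mRNA thus gave chromatin counts. In bulk samples such as these, fewer cells of a type and less RNA per cell cannot be told apart. Over 2957 protein-coding genes at under 0.01 CPM in poly(A) RNA, called silent here, the median chromatin level was 2.24 CPM per kilobase of exon and the 95th percentile 5.87. The median of the tested genes was 5.02 to 5.46 CPM per kilobase in the 4 libraries.

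The counts of silent genes depended on GC content, and not in the same way in both groups. In siCtrl their median rose from 1.36 CPM per kilobase in genes under 40% GC to 4.22 in genes of 60% or more. In siPADI2 it went from 2.18 to 1.89 over the same classes. Tested genes also had a slope, of a smaller size than silent genes: without correction their median log2 fold change went from 0.33 in the 10% of genes with the lowest GC content to −0.83 in the 10% with the highest. Each library's trend on GC content was therefore removed before testing, and all levels below are GC-corrected CPM unless another scale is named. A higher level here means more exonic RNA per library total, and the source of the counts in silent genes was not tested. Results are given over all 13180 genes and again over the 5586 genes (42.4%) above the 95th percentile of silent genes, with the trend fitted on those genes alone.

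**Figure D1:**
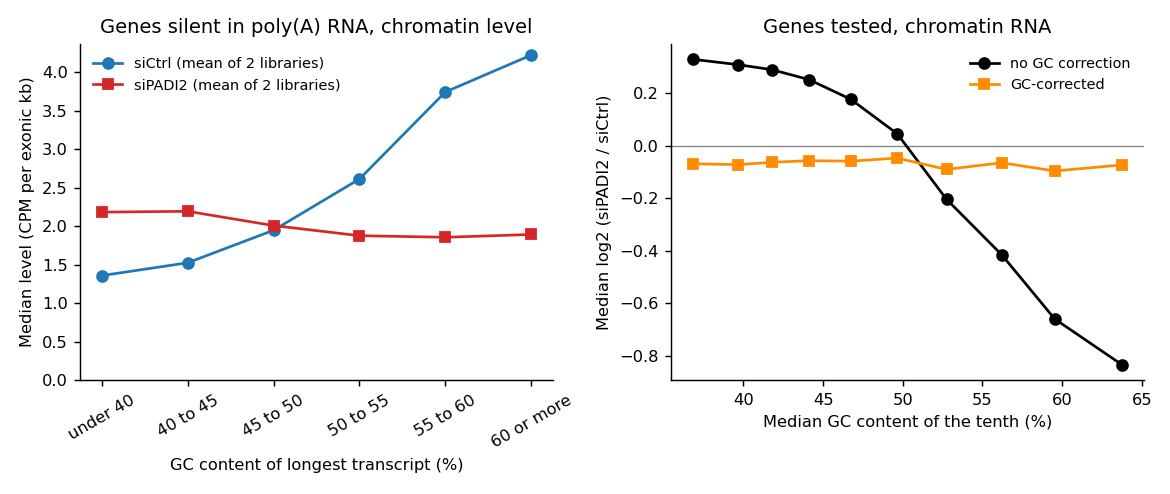
Left, the median chromatin level of genes silent in poly(A) RNA, in CPM per exonic kilobase, by GC class for siCtrl and siPADI2 (mean of 2 libraries each). It rises from 1.36 to 4.22 in siCtrl and not in siPADI2. Right, the median log2 fold change of tested genes in 10 equal classes of GC content, before correction (0.33 to −0.83) and after it.

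After PADI2 knockdown 2529 of 13180 genes passed the test in chromatin RNA (19.2%; edgeR quasi-likelihood, Benjamini-Hochberg adjusted p under 0.05). Of these 795 rose (6.03% of genes tested) and 1734 fell (13.2%). The split depended on how the GC trend was centred: with a trend that was not centred, 1173 genes rose and 1365 fell, and the median of all genes moved from −0.07 to 0.00 on the log2 scale. Changes are therefore best read relative to the median of all genes. Among the 5586 genes above the level of silent genes 1264 were called (22.6%), 509 higher (9.11%) and 755 lower (13.5%). DESeq2 called 807 of the 13180 (224 higher, 583 lower) and 611 of the 5586 (195 higher, 416 lower). With 1 library left out the calls numbered 1387 (without siCtrl replicate 1), 1083 (without siCtrl replicate 5), 2112 (without siPADI2 replicate 1) and 1357 (without siPADI2 replicate 2). A core of 410 genes (73 higher, 337 lower) kept its call under all 16 settings that tested every gene.

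The level of a gene set how far its change could be read. Of genes under the 95th percentile of silent genes and with at least 60% GC, 18.02% were called lower and 4.99% higher, with a median of −0.16 after correction. Of genes under it with less than 40% GC, 4.92% were called lower, and their median was 0.00. Above it the order was the other way round, with medians of −0.17 under 40% GC and 0.00 at 60% or more. One trend fitted over all genes thus left a slope within each level class. Of the 12 genes with the largest decreases (at least 10 CPM) 10 lay under the 95th percentile of silent genes. Among them were GPR146, a receptor (1.87 times the silent median), the transporter SLC45A4 (1.85 times) and TMEM201, a nuclear membrane protein (1.15 times). GPR146 stood at 17.8 and 19.3 CPM in siCtrl and 5.07 and 4.11 CPM in siPADI2. Its groups did not overlap, as in 58.9% of all genes tested.

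**Figure D2:**
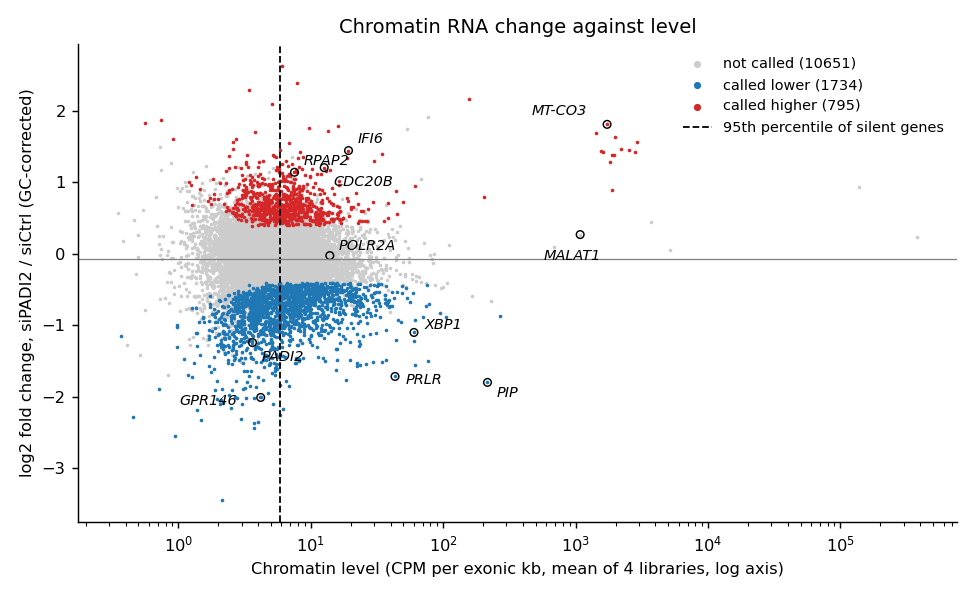
Log2 fold change in chromatin RNA (siPADI2 over siCtrl, GC-corrected) against the mean chromatin level in CPM per exonic kilobase (log axis), 1 point per tested gene. The dashed line is the 95th percentile of silent genes (5.87). PADI2 and GPR146 lie left of it, while PIP, PRLR, XBP1, RPAP2 and the mitochondrial MT-CO3 lie right of it.

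PADI2 itself (ENSG00000117115.8, chr1:17393256-17445948 in hg19, minus strand) was lower in both knockdown libraries. It stood at 31.1 and 28.03 CPM in siCtrl and at 9.15 and 15.9 CPM in siPADI2, from raw counts of 215, 221, 24 and 40. The groups did not overlap, as in 58.9% of all genes tested, and the log2 fold change was −1.24 (SE 0.228, adjusted p = 2.91e-05). In poly(A) RNA the decrease was larger, from 22.7 ± 0.260 to 1.90 ± 0.0730 CPM (SD, n = 2 each; log2 fold change −3.58, edgeR adjusted p = 2.47e-11). The effect in chromatin differed from that in poly(A) RNA by 2.33 (adjusted p = 3.77e-06). Adjusted p-values of such differences may be too small, since 1 spread per gene was fitted for both fractions. The chromatin level of PADI2 was 1.62 times the median of silent genes, under their 95th percentile. PADI3, the other family member tested, fell by 0.76 in chromatin RNA (adjusted p = 0.0293) at 2.04 times the silent median, and by 1.18 in poly(A) RNA. The chromatin call of PADI2 held without any 1 library, while that of PADI3 was lost without each of the 4 in turn (adjusted p = 0.0802 to 0.205).

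Genes of the polymerase and its control were called at about the share of all genes tested (19.2%). POLR2A, the largest subunit of RNAP2, stood at 122 and 110 CPM in siCtrl and 111 and 117 CPM in siPADI2. These ranges overlap, and the log2 fold change was −0.03 (adjusted p = 0.934). Of 12 RNAP2 subunits POLR2B (−0.65, adjusted p = 8.23e-04) and POLR2D (−0.90) fell and POLR2H rose by 0.42. The sign of POLR2H turned without GC correction (−0.17) and with the median GC over transcripts (−0.32), and the POLR2D call was lost without siPADI2 replicate 2 (adjusted p = 0.577). Of 42 genes of pausing and elongation 1 rose and 6 fell (median −0.11 against −0.07 for all genes). Of the 22 above the level of silent genes 1 rose and 1 fell. Without siCtrl replicate 5 or siPADI2 replicate 2 the count of those that fell in the whole list was 2.

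RPAP2, a phosphatase of the RNAP2 C-terminal domain, was the 1 gene of that list to rise (chr1:92764522-92867613 in hg19, plus strand). It stood at 75.5 and 77.5 CPM in siCtrl and 162 and 175 CPM in siPADI2. Both knockdown libraries were above both controls by more than the spread within either group (log2 fold change 1.14, SE 0.155, adjusted p = 2.56e-08). In poly(A) RNA it changed by 0.22 (19.3 ± 0.792 to 22.5 ± 0.755 CPM), and the difference between the fractions was 0.92 (adjusted p = 8.41e-06). AFF4, the scaffold of the super elongation complex, was the 1 member to fall in the fit of genes above the silent level. It went from 224 and 176 CPM to 121 and 94.6 CPM (−0.89, adjusted p = 4.13e-05 in the fit over all genes). In the fit of genes above the silent level its log2 fold change was −0.74 (adjusted p = 3.46e-04). MLLT1, a partner of AFF4, also fell (−1.32), at 1.83 times the silent median. The MLLT1 call was lost without siPADI2 replicate 2 (adjusted p = 0.0643).

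Above the level of silent genes the largest decreases included the following. PIP, prolactin-induced protein, was at 179 and 236 CPM in siCtrl and 63.2 and 56.0 CPM in siPADI2 (chr7:142829170-142836839 in hg19; log2 fold change −1.80, SE 0.168, adjusted p = 5.42e-14). PRLR, the prolactin receptor, was at 1016 and 847 CPM in siCtrl and 313 and 254 CPM in siPADI2 (chr5:35048861-35230794; −1.72, SE 0.241, adjusted p = 6.93e-08). For both genes the lowest control lay well above the highest knockdown library. CLEC3A, a secreted lectin, fell by 1.76 and ZG16B, also a secreted lectin, by 1.56. IGFBP5, which binds insulin-like growth factors, went from 631 and 538 CPM to 235 and 165 CPM (−1.55, adjusted p = 7.39e-08). Also among these decreases were OGDHL, a relative of the 2-oxoglutarate dehydrogenase enzyme (−1.85), and ATP5MK, a subunit of ATP synthase (−1.62). The values of PIP and OGDHL are from the fit over all genes. In the fit of genes above the level of silent genes they were −1.69 and −1.90. CLEC3A, ZG16B, IGFBP5 and ATP5MK were named after their values were seen, by the same rule applied to genes above the level of silent genes. The poly(A) decreases of PIP, PRLR, CLEC3A, ZG16B and IGFBP5 were larger (−2.81 to −3.44), and each difference between the fractions was called.

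**Figure D3:**
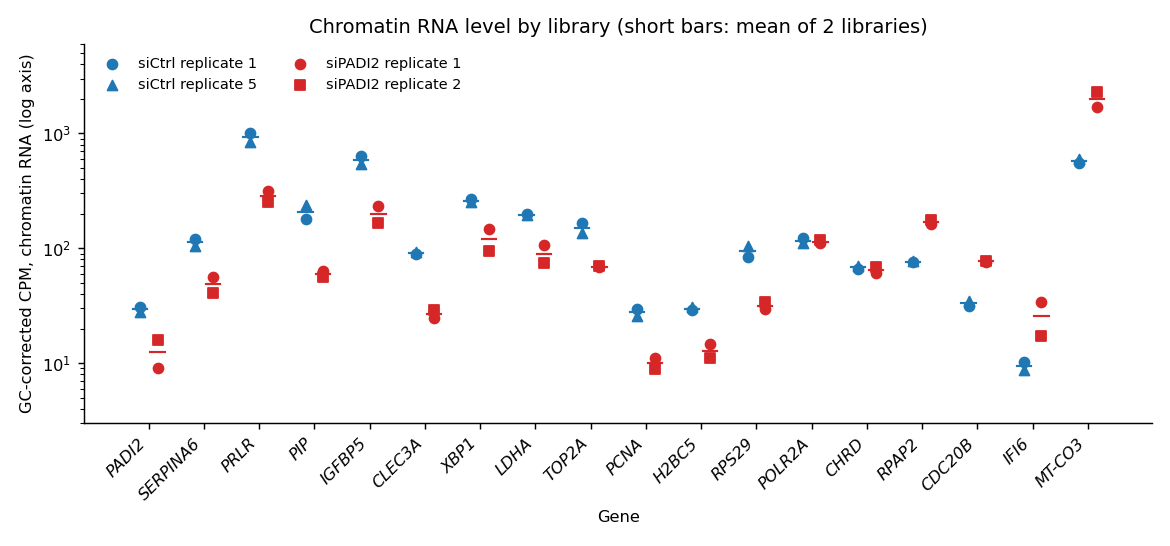
GC-corrected CPM in chromatin RNA (log axis) of 18 genes in the 4 libraries, with short bars at the mean of each group of 2 libraries. The knockdown points lie below both controls from PADI2 to RPS29, overlapping them for POLR2A and CHRD, and above them from RPAP2 to MT-CO3.

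Of 25 estrogen response genes tested 11 fell and none rose (median −0.42), where 13.2% of all genes tested fell and 6.03% rose (median −0.07). Of the 10 above the level of silent genes 5 fell (median −0.51), where 13.5% of all such genes fell (median −0.03). Without siCtrl replicate 5 or siPADI2 replicate 2 the count over the whole list was 7, and DESeq2 called 6. TFF3, a secreted trefoil peptide, went from 25.1 and 25.5 CPM to 10.8 and 9.31 CPM (−1.33, adjusted p = 2.67e-05). XBP1, a transcription factor of secretory cells, went from 266 and 250 CPM to 146 and 94.2 CPM (−1.10, adjusted p = 1.94e-06). TFF3 and XBP1 fell by like amounts in poly(A) RNA (−1.395 and −0.89), and their differences between fractions were not called (adjusted p = 0.866 and 0.484). ESR1, the estrogen receptor, fell less in chromatin RNA than in poly(A) RNA (−0.78 against −1.61; adjusted p of the difference = 1.38e-04), as did RET, a receptor kinase, by value (−1.26 against −1.87; adjusted p of the difference = 0.0778). The chromatin level of ESR1 was 2.1 times the silent median, under the 95th percentile of silent genes, which limits how far its chromatin change can be read.

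Of 14 progestin response genes 5 fell and none rose (median −0.38), and 3 fell without siCtrl replicate 5 or siPADI2 replicate 1. In the fit of all 4 libraries 13.2% of all genes tested fell and 6.03% rose. SERPINA6, corticosteroid-binding globulin, was at 121 and 104 CPM in siCtrl and 55.9 and 41.0 CPM in siPADI2 (−1.21, SE 0.159, adjusted p = 1.17e-08). Its poly(A) level fell from 1793 ± 79.3 to 150 ± 9.74 CPM (−3.58). PGR, the progesterone receptor, was at 171 and 136 CPM against 126 and 107 CPM, with a log2 fold change of −0.40 that did not pass (adjusted p = 0.0658), and −1.72 in poly(A) RNA. CCND1, cyclin D1, was at 39.5 and 39.98 CPM against 28.4 and 18.03 CPM (−0.77, adjusted p = 0.00182) and fell by 2.49 in poly(A) RNA. MYC, a growth factor-responsive transcription factor, fell in both fractions (−0.86 and −1.20). The chromatin calls of CCND1 and MYC were lost with DESeq2 (adjusted p = 0.0648 and 0.0909). The CCND1 call was also lost without siPADI2 replicate 2 (adjusted p = 0.141), and the MYC call without siCtrl replicate 5 or siPADI2 replicate 1 (0.0537 and 0.0631). Where 13.2% of all genes tested fell and 6.03% rose, 7 of 23 luminal lineage genes fell and 2 rose (median −0.16). Without either siCtrl replicate 4 of them fell. KRT19, a luminal keratin named after its value was seen, fell from 760 and 727 CPM to 447 and 365 CPM.

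The cell cycle genes called in chromatin RNA were lower. Of all genes tested 13.2% were called lower and 6.03% higher there (median −0.07). In the list for G1/S and replication 13 of 32 genes were called lower and none higher (median −0.44). The list for G2/M and mitosis had 15 of 30 called lower and none higher (median −0.53). Above the level of silent genes the counts called lower in these 2 lists were 7 of 19 and 8 of 16, against 13.5% of all such genes. RRM1, the large subunit of ribonucleotide reductase, went from 61.0 and 51.6 CPM to 19.9 and 20.95 CPM (−1.46, adjusted p = 2.68e-09). PCNA, the sliding clamp of DNA polymerase, went from 29.6 and 25.7 CPM to 11.1 and 8.85 CPM (−1.46, adjusted p = 2.13e-06). TOP2A, which untangles chromosomes, went from 166 and 135 CPM to 68.4 and 69.6 CPM (−1.12, adjusted p = 4.17e-08), and CDK1, the mitotic kinase, fell by 0.85. In none of these 4 genes did the groups overlap, nor did they in 58.9% of all genes tested. The differences between the fractions were not called for RRM1, TOP2A and CDK1 (adjusted p = 0.0517 to 0.753). PCNA fell more in chromatin RNA (−1.46 against −0.66; adjusted p of the difference = 0.00721), and RRM2, the small reductase subunit, fell less (−0.999 against −2.27; adjusted p = 2.37e-05). DESeq2 called 5 of the 32 and 7 of the 30 lower. Without siCtrl replicate 5 both counts were 7, and without siCtrl replicate 1 or siPADI2 replicate 2 the G2/M count was 10 and 9.

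The promoters of these 4 genes are shown because cell cycle genes share known elements and moved together here. Each runs from 250 bases before to 50 after the start, 5′ to 3′ on the gene's strand, from RefSeq on GRCh38.p14. Capitals mark, on either strand, TTTGAA (the core of the CHR element of mitotic genes), CCAAT, TTCCCGCC (an E2F word) and TATAAA. None of these words is part of another. The windows are chr17:40417847-40418146 (minus strand), chr10:60778081-60778380 (plus), chr11:4094435-4094734 (plus) and chr20:5126573-5126872 (minus).
TOP2A: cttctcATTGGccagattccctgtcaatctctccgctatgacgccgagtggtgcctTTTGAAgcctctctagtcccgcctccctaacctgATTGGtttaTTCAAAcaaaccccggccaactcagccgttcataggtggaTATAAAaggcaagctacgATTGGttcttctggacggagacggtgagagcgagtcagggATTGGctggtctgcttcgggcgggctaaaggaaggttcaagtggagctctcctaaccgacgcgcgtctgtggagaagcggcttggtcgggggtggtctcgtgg
CDK1: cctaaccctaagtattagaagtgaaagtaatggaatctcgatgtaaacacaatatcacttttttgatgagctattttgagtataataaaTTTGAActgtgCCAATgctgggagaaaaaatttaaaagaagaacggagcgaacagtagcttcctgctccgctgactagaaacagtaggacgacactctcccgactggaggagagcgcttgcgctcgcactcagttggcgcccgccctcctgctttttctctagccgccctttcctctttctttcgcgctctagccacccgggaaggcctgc
RRM1: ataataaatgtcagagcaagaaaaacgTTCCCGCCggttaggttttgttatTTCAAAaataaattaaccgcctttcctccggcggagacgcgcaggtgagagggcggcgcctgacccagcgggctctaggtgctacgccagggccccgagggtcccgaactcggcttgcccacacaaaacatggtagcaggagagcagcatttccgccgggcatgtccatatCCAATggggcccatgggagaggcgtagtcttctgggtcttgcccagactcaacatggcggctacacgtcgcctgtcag
PCNA: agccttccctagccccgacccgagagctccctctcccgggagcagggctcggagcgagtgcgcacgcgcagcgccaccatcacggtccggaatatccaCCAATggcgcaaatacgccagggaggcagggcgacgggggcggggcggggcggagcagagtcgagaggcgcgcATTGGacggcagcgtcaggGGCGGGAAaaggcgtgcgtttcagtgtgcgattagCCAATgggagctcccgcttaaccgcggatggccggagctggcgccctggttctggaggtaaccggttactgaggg

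CCAAT is in all 4 windows, TTTGAA in those of TOP2A, CDK1 and RRM1, TTCCCGCC in those of RRM1 and PCNA, and TATAAA in that of TOP2A. Of the 25 promoters matched for G2/M genes 17 (68.0%) hold TTTGAA, against 9.49% of the 10274 matched promoters of genes tested and 15.4% of all 27305 in the table. Of the 27 matched for G1/S genes 8 (29.6%) hold TTCCCGCC, against 5.16% of those tested and 3.18% of all. CCAAT was in 76.0% and 59.3% of the G2/M and G1/S promoters and in 37.0% of those tested (35.7% of all), and TATAAA in 2 and 1 of them against 5.43% of those tested (11.95% of all). Over all genes called, the words had no such shares: TTTGAA was in 10.99% of the promoters of genes that fell and 9.51% of those that rose, and TTCCCGCC in 4.40% and 3.70%. The matches describe the letters of these windows and not binding.

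Replication-dependent histone genes fell in chromatin RNA while several rose in poly(A) RNA. These genes lie in clusters of near-identical copies, so their counts are uncertain. Of 10 tested 6 fell and none rose (median −0.85), against 5 higher and 2 lower in poly(A) RNA (median 0.22). Of all genes tested 35.9% were higher and 35.2% lower in poly(A) RNA, and 6.03% and 13.2% in chromatin RNA. H2BC5 was at 29.1 and 30.6 CPM in siCtrl and 14.5 and 11.1 CPM in siPADI2 (−1.22, adjusted p = 2.00e-05), but rose by 1.58 in poly(A) RNA. The difference between the fractions was −2.80 (adjusted p = 4.40e-09). H2BC4 (−1.27 against 0.72) and H2AC6 (−0.96 against 0.64) had the same pattern, the latter without a chromatin call when siCtrl replicate 5 was left out (adjusted p = 0.103). H2BC21 fell in both fractions (−0.96 and −1.401). Poly(A) selection keeps only the minority of histone transcripts with a tail. Without siCtrl replicate 5 the chromatin count was 4 (median −0.69). For this list 6 of 10 differences between fractions were called, all with the chromatin effect below, against 23.5% of all genes tested.

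Among the 75 genes for ribosomal proteins 35 were called lower and 1 higher (median −0.41), and of the 72 above the level of silent genes 32 fell and 1 rose (median −0.40). RPS29 went from 83.4 and 106 CPM to 29.4 and 34.1 CPM (−1.58, adjusted p = 3.85e-12), and RPL39 fell by 1.18 and RPS27A by 1.04. Without siCtrl replicate 5 the count of those that fell was 15 and without siPADI2 replicate 2 it was 23, as it was with DESeq2. The poly(A) counts were 39 lower and 5 higher of the 75, with a median of −0.20. Of all genes tested 35.2% were lower and 35.9% higher there. The chromatin effect was called below the poly(A) effect for 21 of the 75 and above it for 3. The first count is near the share of all genes tested (23.5%), and the second is under it (16.3%). Ribosomal protein genes have many processed pseudogenes, so their counts may be incomplete. Of all genes tested 13.2% were called lower in chromatin RNA. In the 10% of genes with the highest chromatin level per kilobase 26.2% were called lower (median −0.19). In the 10% with the highest poly(A) level per kilobase it was 26.9% (median −0.21). Whether the lists of this paragraph differ from genes of like level was not tested. Of 43 nuclear genes of oxidative phosphorylation 14 fell and 2 rose (median −0.37). COX7C, a subunit of cytochrome c oxidase, went from 58.4 and 64.7 CPM to 25.4 and 18.3 CPM (−1.49, adjusted p = 9.42e-10). Above the silent level the count was 8 lower and 2 higher of 38. Over the whole list 3 fell without siCtrl replicate 5, 9 without siPADI2 replicate 2, and 5 with DESeq2. NPM1, a nucleolar chaperone of ribosome assembly, fell by 0.68 (adjusted p = 0.00355) and did not pass in poly(A) RNA (adjusted p = 0.978). Its chromatin call was lost without either siCtrl replicate or siPADI2 replicate 2 (adjusted p = 0.0763 to 0.109). Of its list of 33 ribosome biogenesis genes 5 fell and 1 rose, where 13.2% of all genes tested fell and 6.03% rose. With 1 library left out 1 to 3 of the 33 fell.

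Of 27 genes of the integrated stress and unfolded protein response 15 fell and 1 rose in chromatin RNA (median −0.53), and 12 of the 19 above the silent level fell. Of all genes tested 13.2% fell and 6.03% rose in chromatin RNA, and of all those above the silent level 13.5% fell. Of the 27, 9 rose and 11 fell in poly(A) RNA (median −0.04), near the shares of all genes tested (35.9% and 35.2%). Without siCtrl replicate 1 or 5, or siPADI2 replicate 2, the number that fell in chromatin RNA was 7, 9 and 7, and DESeq2 called 7. DDIT3, the stress factor CHOP, was at 19.5 and 25.2 CPM in siCtrl and 6.91 and 8.90 CPM in siPADI2 (−1.50, SE 0.263, adjusted p = 1.14e-05). Its poly(A) RNA rose by 0.91, and the difference was −2.42 (adjusted p = 2.81e-07). MTHFD2, a mitochondrial folate enzyme, fell by 0.77 in chromatin RNA and rose by 0.43 in poly(A) RNA. Of 25 hypoxia and glycolysis genes 11 fell and none rose (median −0.40), against 6, 7 and 4 without siCtrl replicate 1 or 5 or siPADI2 replicate 2. LDHA, lactate dehydrogenase A, went from 197 and 193 CPM to 106 and 73.8 CPM (−1.12, adjusted p = 2.54e-07). Of 23 cholesterol synthesis genes 8 fell and none rose (median −0.28), against 5, 3 and 3 without the same libraries. INSIG1, which holds back the sterol sensor, fell by 0.81 in chromatin RNA and did not pass in poly(A) RNA (−0.01). The INSIG1 call was lost without siPADI2 replicate 2 (adjusted p = 0.0717).

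Mitochondrially encoded mRNAs were 6 of the 12 largest increases among genes at 10 CPM or more. Where 6.03% of all genes tested rose and 13.2% fell, 12 of the 13 tested mRNAs of this kind rose and none fell (median 1.44). Their summed level was 13845 and 14586 CPM in siCtrl and 28432 and 43015 CPM in siPADI2. MT-CO3, a subunit of cytochrome c oxidase, was at 550 and 594 CPM in siCtrl and 1701 and 2306 CPM in siPADI2 (1.81, SE 0.303, adjusted p = 4.92e-06). MT-CO1 rose by 1.69 and MT-CO2 by 1.63. The 1 exception, MT-ND6, is the only protein gene read from the light strand of the mitochondrial genome. It was at 2524 and 2751 CPM against 2035 and 3426 CPM, with overlapping groups (0.05, adjusted p = 0.948), and was named after its value was seen. Poly(A) RNA of 12 of the 13 fell (median −0.58), and 12 differences between the fractions were called. Without siCtrl replicate 1 the count of those that rose was 2, and without siCtrl replicate 5 it was 4, with medians of 1.396 and 1.49. The MT-CO3 call was lost without siCtrl replicate 1 (adjusted p = 0.0542), and the calls of MT-CO1 and MT-CO2 without either siCtrl replicate (0.0592 to 0.13). DESeq2 called 12 higher. Mitochondria are not part of chromatin. Of the 5 markers of cytoplasmic RNA, MT-CO1 and MT-ND4 rose (1.69 and 1.42), RPLP0 and RPS3 fell (−0.43 and −0.41) and GAPDH did not pass (−0.40, adjusted p = 0.0991). How much mitochondrial RNA came along with each pellet was not tested. The nuclear pseudogenes MTCO3P12, MTND4P12 and MTND5P11 rose by 2.16, 1.79 and 1.76, but reads of the mitochondrial genes and of these copies may be exchanged.

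**Figure D4:**
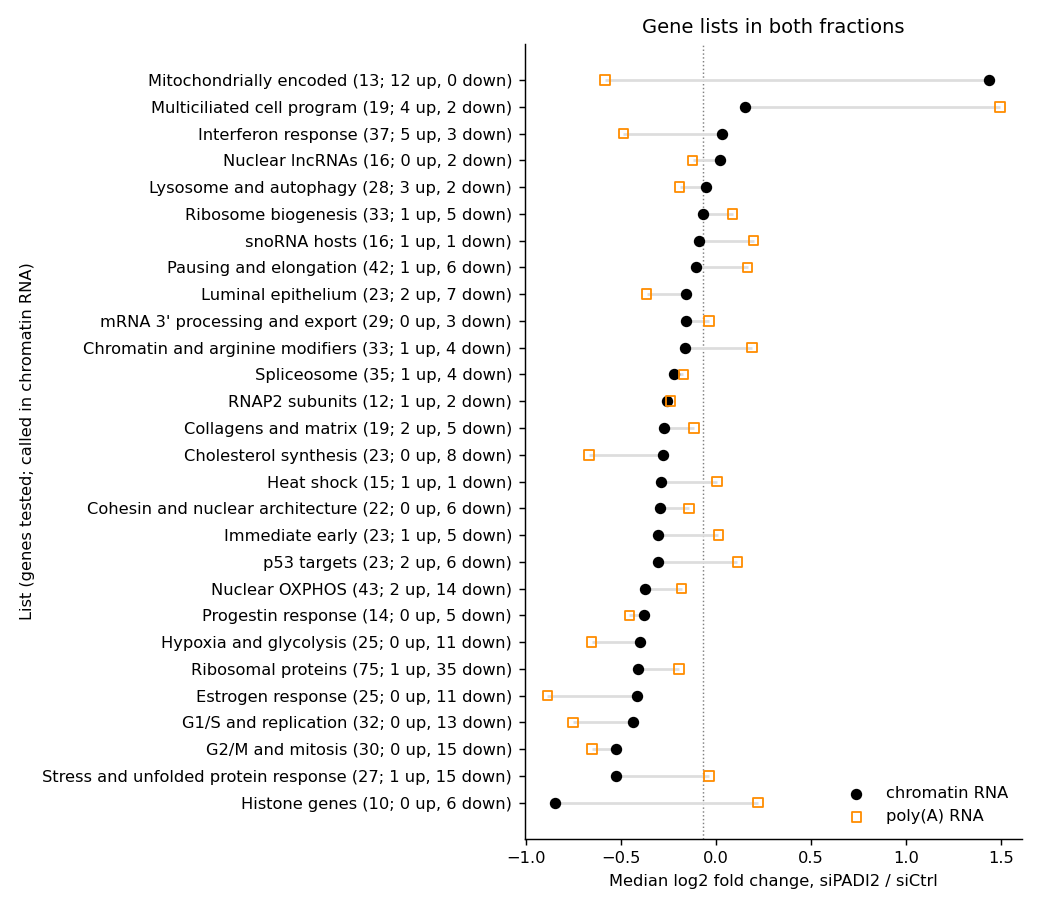
Median log2 fold change (siPADI2 over siCtrl) of each list with at least 10 genes tested, in chromatin RNA (filled circles) and poly(A) RNA (open squares). Row labels give genes tested and called in chromatin RNA, and the dotted line is the median of all genes (−0.07). Mitochondrially encoded mRNAs (1.44 against −0.58) and histone genes (−0.85 against 0.22) lie on opposite sides of 0 in the 2 fractions.

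Few other lists held several genes that rose. IFI6, an interferon-induced protein of the endoplasmic reticulum, was at 10.2 and 8.78 CPM in siCtrl and 34.1 and 17.1 CPM in siPADI2 (1.44, SE 0.247, adjusted p = 7.49e-06), with no call in poly(A) RNA (0.27, adjusted p = 0.343). Of 37 interferon response genes 5 rose and 3 fell in chromatin RNA (median 0.03), and 24 fell in poly(A) RNA. Of all genes tested 6.03% rose and 13.2% fell in chromatin RNA, and 35.2% fell in poly(A) RNA. Of the 5 that rose 1 was called without siCtrl replicate 1, and the IFI6 call was lost without siPADI2 replicate 1 (adjusted p = 0.0561). Only 7 of the 37 were above the level of silent genes, of which 1 rose and 1 fell. LINC01703, a long noncoding RNA, was at 6.27 and 5.42 CPM in siCtrl and 19.4 and 18.9 CPM in siPADI2 (1.72, adjusted p = 3.32e-06) and rose by 1.07 in poly(A) RNA. Its raw chromatin counts were 50 and 55 in siCtrl and 45 and 36 in siPADI2. Without GC correction its chromatin change was smaller (0.93, adjusted p = 0.00837). Long noncoding RNAs as a class lay above the protein-coding genes: of 864 tested 106 rose and 48 fell (median 0.12), while of 12001 protein-coding genes 660 rose and 1646 fell (median −0.08). A like median (0.13) was seen in the 10% of all genes with the highest chromatin over poly(A) level. Of those 1318 genes 207 rose and 139 fell. Whether noncoding RNAs differ from other genes of like level was not tested. Of 16 named nuclear long noncoding RNAs TUG1 (−0.84) and CHASERR (−0.93) fell and none rose, but OIP5-AS1 rose in the fit of genes above the level of silent genes (0.49, adjusted p = 0.0080), and 1 of the 16 rose without siCtrl replicate 1 or siPADI2 replicate 1. MALAT1 was at 9536 and 7170 CPM in siCtrl and 11326 and 8787 CPM in siPADI2 (0.27, adjusted p = 0.761). NEAT1 stood at 938 and 743 CPM against 749 and 691 CPM (−0.22, adjusted p = 0.591). Both had overlapping groups.

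Genes of the multiciliated cell program rose far more in poly(A) RNA than in chromatin RNA. Of all genes tested 35.9% rose in poly(A) RNA, while 6.03% rose and 13.2% fell in chromatin RNA. Of the 19 tested genes of this program 16 rose in poly(A) RNA (median 1.49) and 4 in chromatin RNA, where 2 fell (median 0.15). Without siCtrl replicate 1 or siPADI2 replicate 2 the number that rose in chromatin RNA was 1 and 2. CDC20B, which carries the miR-449 microRNAs of ciliated cells in an intron, was at 31.7 and 35.1 CPM in siCtrl and 75.9 and 77.9 CPM in siPADI2 (chr5:54408799-54469005 in hg19; 1.20, SE 0.153, adjusted p = 5.14e-09). Its poly(A) RNA rose from 3.20 ± 0.0336 to 98.6 ± 9.90 CPM (4.94). CCNO, a cyclin needed for centriole amplification, rose by 0.73 (adjusted p = 0.0112) and by 2.00 in poly(A) RNA. The CCNO call was lost with DESeq2 (adjusted p = 0.148) and without siPADI2 replicate 1 or siCtrl replicate 1 (0.634 and 0.0925). FOXJ1, the master factor of motile cilia, was at 18.96 and 20.3 CPM against 21.6 and 23.0 CPM (0.18, adjusted p = 0.621; −0.64 without GC correction) and rose by 3.54 in poly(A) RNA. Only 8 of the 19 genes were above the level of silent genes, of which 3 rose and 1 fell in chromatin RNA (median 0.41). For the rest the level limited how far a chromatin change could be read. For 16 of the 19 genes the chromatin effect was called below the poly(A) effect, against 23.5% of all genes tested. GPNMB, a lysosomal glycoprotein, had a like pattern (0.65 against 3.03), its chromatin call being lost without siCtrl replicate 1 (adjusted p = 0.106).

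The effects in the fractions were then compared directly. The poly(A) fit called 9370 of the same 13180 genes (71.1%), 4735 higher (35.9%) and 4635 lower (35.2%), at a depth many times that of the chromatin libraries. With total counts as library sizes the poly(A) split was 6656 higher and 3097 lower, and the median of all genes moved to 0.19. The interaction of knockdown and fraction was called for 5249 genes (39.8%), with the chromatin effect above that in poly(A) RNA for 2147 (16.3%) and below it for 3102 (23.5%). Above the level of silent genes it was called for 2134 of 5586. Of the 795 genes that rose in chromatin RNA 46.5% also rose in poly(A) RNA and 25.3% fell there. Of the 1734 that fell 53.7% also fell in poly(A) RNA and 23.3% rose. Above the level of silent genes these shares of genes called in the same direction were 45.6% and 63.7%, where 31.7% and 39.7% of all such genes rose and fell in poly(A) RNA. Over genes the log2 fold changes of the fractions had a Spearman rho of 0.21 (13180 genes, which share libraries and are not replicates). The median chromatin change went from 0.08 in the 10% of genes with the lowest poly(A) level per kilobase to −0.21 in the 10% with the highest.

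Several genes had large effects in poly(A) RNA without a like effect in chromatin RNA. CHRD, a secreted antagonist of bone morphogenetic proteins, was at 65.5 and 70.6 CPM in siCtrl and 60.4 and 68.3 CPM in siPADI2, with overlapping groups (−0.09, adjusted p = 0.754). Its poly(A) RNA fell from 15.1 ± 0.351 to 0.749 ± 0.110 CPM (−4.33), and the difference between fractions was 4.24 (adjusted p = 1.64e-11). SOX2, a stem cell factor, was at 23.7 and 26.5 CPM against 24.4 and 24.4 CPM (−0.04, adjusted p = 0.913), while its poly(A) RNA rose from 13.7 ± 0.294 to 78.4 ± 0.672 CPM (2.52). ADIPOQ, adiponectin, rose in chromatin RNA from 73.9 and 72.8 CPM to 120 and 110 CPM (0.65, adjusted p = 6.44e-04) and fell by 3.15 in poly(A) RNA. ATP1A4, a sodium pump subunit, did likewise (0.71 and −2.72). SCUBE2 (−0.36 against −3.10) and TNS4 (−0.68 against −5.51) had weaker chromatin effects at 2.11 and 2.41 times the silent median. RHBDL3 (−0.27 against 5.07), FOXN4 (−0.73 against 4.81) and SULF1 (0.45 against 3.63) were at 1.85 to 2.47 times it. The chromatin calls of TNS4, FOXN4 and SULF1 were each lost with 1 library left out (adjusted p up to 0.154, 0.196 and 0.265). CHRD, ADIPOQ, ATP1A4, SOX2 and FOXJ1 were 3.64 to 9.25 times the silent median.

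**Figure D5:**
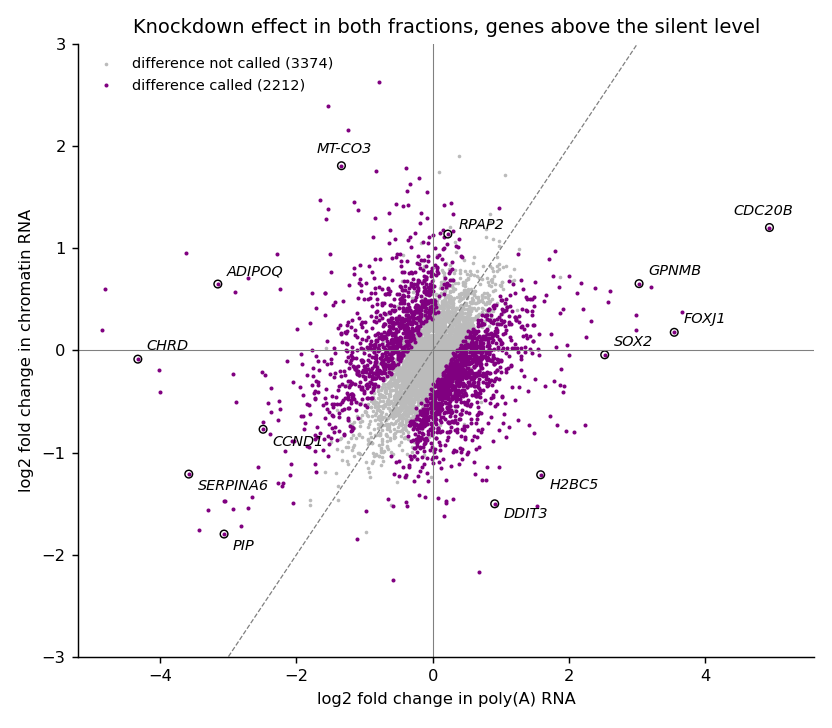
Log2 fold change in chromatin RNA against that in poly(A) RNA for the 5586 genes above the level of silent genes, with genes whose difference was called in the fit over all 13180 genes in purple and the line of equal effects dashed. CHRD, SOX2 and FOXJ1 lie near 0 on the chromatin axis at −4.33, 2.52 and 3.54 in poly(A) RNA, and DDIT3 and H2BC5 have opposite signs.

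The 3′ UTR words ATCCACA and TACCATG had been picked out earlier as those that went with lower poly(A) RNA in these samples, so their poly(A) medians are a description. Among 285 genes with both words the median was −0.19 in poly(A) RNA and −0.11 in chromatin RNA. Among 9464 genes with neither it was 0.03 and −0.07. In chromatin RNA 18.2% of the first and 13.1% of the second were called lower. Without GC correction the order of the chromatin medians was reversed (0.13 with both words, −0.04 with neither). The 3′ UTRs of genes with both words were longer (median 4909 against 1392 bases), and the part of length in these shares was not tested.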

How the data were processed

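RNA-seq of poly(A) RNA (8 libraries) and of chromatin-associated RNA (4 libraries) was deposited as raw counts per gene. The authors made these counts with featureCounts 1.4.6-p2 (chromatin) and 1.5.1 (poly(A)) on the exons of GENCODE 19, counting fragments on the reverse strand, per the file headers. Trimmomatic, STAR and hg19 are named in the submitters' processing notes. Chromatin pellets were ribosomal RNA-depleted before library preparation, per the labels' protocols.

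Genes with a mean of at least 1 CPM over the poly(A) libraries and 2 CPM over the chromatin libraries were tested with edgeR 4.0.16 (quasi-likelihood, robust, R 4.3.3) and Benjamini-Hochberg adjustment at 0.05. Offsets combined TMM library sizes with each library's loess trend (span 0.3, degree 1) on the GC content of the longest GENCODE 29 transcript, matched by gene ID for 52338 of 57820 genes. The poly(A) libraries were fitted likewise, and the difference between fractions was the interaction in a joint fit of 8 libraries. That fit used 1 spread per gene for both fractions. Fitted apart, the edgeR common dispersion was 0.0102 in chromatin RNA and 0.00293 in poly(A) RNA. The SE of a difference could thus fall below that of the chromatin effect alone (RPAP2, 0.116 against 0.155). The adjusted p-values of differences may therefore be too small. All adjusted p-values printed are from edgeR unless DESeq2 (1.42.0) is named. On simulated data of the chromatin libraries edgeR recovered 24% of 1.5-fold and 88% of 2-fold changes, with 9.83% of its calls false. DESeq2 recovered 6% and 56%, with 2.31% false, and for edgeR without GC correction 94.2% of calls were false. The simulated counts carried the fitted GC trends, and only 50 of 13180 genes were changed at each fold size. The 94.2% therefore follows from how the data were simulated. It cannot show whether the GC trend of the real libraries is technical or whether removing it is right.

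Genes and lists were chosen with earlier results of these data known. Named genes were the 12 largest increases and decreases at 10 CPM or more, 10 fixed genes, up to 4 genes per list by adjusted p, and the 6 largest differences from poly(A) RNA by adjusted p in each direction. Alternatives covered library scaling, GC correction, filters, DESeq2, a replicate block and each library left out. Some genes of this selection are not reported here.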

Additional observations from a re-analysis of the deposited data

Results flagged for a closer look

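The effect of PADI2 knockdown differed between chromatin and poly(A) RNA for 5249 genes by the interaction test. The values below are the log2 effect in chromatin RNA minus that in poly(A) RNA.

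The chromatin effect was above the poly(A) effect for PADI2 itself (2.33), for POLR2A (0.43), and for the hormone pathway genes CCND1 (1.72), ESR1 (0.83), PGR (1.33) and SERPINA6 (2.37). The same held for the nuclear RNA NEAT1 (1.22) and the mitochondrial copy MTCO3P12 (3.41). CHRD (4.24), ADIPOQ (3.79), TNS4 (4.83), ATP1A4 (3.42) and SCUBE2 (2.74) had the smallest adjusted p-values in this direction besides.

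The chromatin effect was below the poly(A) effect for CDC20B (−3.74), FOXJ1 (−3.37), SOX2 (−2.57), SULF1 (−3.18), RHBDL3 (−5.35) and FOXN4 (−5.54). PADI2, ESR1, TNS4, SCUBE2, SULF1, RHBDL3 and FOXN4 were under the 95th percentile of silent genes in chromatin RNA. What sets these differences was not tested.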

How the results depend on the processing

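Against 2529 calls in chromatin RNA, no GC correction gave 4303, total counts as library sizes 1387, DESeq2 807 and no minimum on the poly(A) level 5024 (more genes tested). An uncentred GC trend gave 2538 (1173 higher, 1365 lower). Leaving out 1 library gave 1083 to 2112. Over genes above the level of silent genes, chosen after seeing the data, 1264 were called (611 with DESeq2, 810, 777, 1186 and 768 without siCtrl replicate 1, siCtrl replicate 5, siPADI2 replicate 1 and siPADI2 replicate 2), and the difference between fractions was called for 2134. The number of calls in poly(A) RNA (7900 to 9753) and for the difference over all genes (4108 to 5714) stayed within 1.5 times, but total counts split poly(A) calls into 6656 higher and 3097 lower and the difference into 1265 above and 4008 below. With an uncentred trend it was 2539 and 2586.

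With the replicate block the counts were 2668 in chromatin RNA, 9693 in poly(A) RNA and 5714 for the difference. The chromatin block took the number in the description code, since titles share only number 1, and the poly(A) block the title number. Over genes, the difference between the libraries of siCtrl correlated with that of siPADI2 at 0.161 in chromatin RNA and 0.0569 in poly(A) RNA. Nothing says that a number marks a shared culture.

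Medians lay above that of all genes for 6 lists, and for 10 without siCtrl replicate 1 (range 5 to 10). Signs turned without GC correction for POLR2H (−0.17, and −0.32 with the median GC over transcripts), JUND (−0.15), HSPB1 (−0.25) and FOXJ1 (−0.64). Without GC correction and with total counts they turned for POLR2H (−0.17), JUND (−0.15), HSPB1 (−0.25) and CCNO (−0.00502). Other causes of these shifts were not tested. Depth limits the chromatin values: the median tested gene had 63 to 180 counts.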
